A study of Mus musculus with 12 samples.

Results

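Crabp2, a small cytosolic protein that binds retinoic acid, was examined together with 8 other genes that move, make or sense retinoic acid: Crabp1, Rbp4, Stra6, Aldh1a1, Aldh1a2, Aldh1a3, Rara and Rarb. Every probe set whose platform annotation gave 1 of these 9 genes as its only symbol was taken, which gave 11 of the 45037 probe sets on the array, or 9 of 18193 named genes. Aldh1a3 had 3 probe sets and the other members had 1 each. The genes were selected on measured values of these arrays, because Crabp2 followed a split of the arrays marked by another probe set, 1441304_at, for which the annotation names no gene. That probe set is called the indicator here.

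The study placed bone marrow mesenchymal stem cells (MSCs) of mice in culture with or without hematopoietic stem cells (HSCs) and measured their RNA on GeneChip mouse genome arrays. For the group given HSCs (co-culture), 3000 MSCs (Sca-1+, PDGFR-α+) were seeded per well, 7000 HSCs (Lin-, Sca-1+, c-Kit+) were added after a day, and RNA was taken on day 6 of co-culture (6 arrays). In the MSC-only group, the same cells were kept with 0 HSCs (6 arrays). All samples are labelled as bone marrow of male C57BL6/J mice aged 6 weeks, with no mutant allele. The labels describe direct and transwell co-culture without saying which was used here. They do not tie an array to an animal or a culture, so p-values measure the spread between arrays, which may be technical.

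Retinol travels in blood bound to Rbp4 and can enter cells through Stra6. Inside the cell it is oxidised to retinaldehyde and then, by the Aldh1a enzymes, to retinoic acid. Retinoic acid is carried by Crabp1 and Crabp2, of which Crabp2 is known for delivering it to the nucleus, and it activates the receptors Rara, Rarb and Rarg on DNA together with their Rxr partners. Rarb and the retinoic acid hydroxylase Cyp26a1 are classic genes induced by retinoic acid, through paired half-sites in their promoters that the receptors bind.

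The paired half-site is printed for Rarb and Cyp26a1 because the first of these was parted by the indicator like Crabp2 and the second was not. Cyp26a1 was below the array's median signal on all 12 arrays, so the 2 genes are not contrasted. The letters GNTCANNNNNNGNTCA, a direct repeat spaced by 5 bases (DR5), were searched on both strands in the RefSeq promoter windows of build GRCm38.p6, which hold 250 bases before a start and 50 after. They were found in 283 of 32851 windows (0.861%). Of the 9 members, 7 had a window, with 15 windows in all, and Rarb was the only one of the 7 with a match. Its match lies 53 to 37 bases before the start, within chr14:16575477-16575576 on the minus strand. In Cyp26a1 the match lies on the opposite strand, 32 to 16 bases before the start, within chr19:37697708-37697807 on the plus strand. The match is in capitals below, and it describes letters only, not a bound site.
Rarb: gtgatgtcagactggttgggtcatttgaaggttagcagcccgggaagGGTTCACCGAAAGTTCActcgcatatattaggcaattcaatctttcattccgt
Cyp26a1: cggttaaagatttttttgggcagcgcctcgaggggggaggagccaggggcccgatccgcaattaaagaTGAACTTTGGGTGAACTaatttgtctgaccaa
Repeats spaced by 2 bases (GNTCANNNGNTCA, in 1.12% of windows) or by 1 base (GNTCANNGNTCA, in 1.26%) were in none of the 15 windows.

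Signals are linear array units, scaled to a common mean on each array, and differences between groups are of log2(signal + 16), co-culture minus MSC-only. The array-wide facts that touch these genes are few. The correlation between arrays over all probe sets was 0.964 to 0.980. The labelled male sex was contradicted on 8 arrays, where Xist, the RNA of the inactive X chromosome, measured 13136 to 21978, against 60.5 to 118 on the other 4. These 8 were all 6 co-culture arrays and 2 MSC-only arrays. On 4 of the 8, numbers 3 and 4 of each group, 3 Y-linked genes were at 17.1 or below. On the other 4, co-culture arrays 1, 2, 5 and 6, Y-linked genes were present beside Xist. There the Y-linked Eif2s3y measured 1022 to 1331, against 2604 to 2845 on the 4 arrays without Xist. The libraries are named below by their labels, and results are also given without the 4 arrays that lacked Y-linked signal. Among the arrays then left, all co-culture arrays carried Xist and no MSC-only array did. Xist and group cannot be told apart there, so that set is not a cleaner comparison. Leaving out all 8 arrays with Xist would leave no co-culture array. Ptprc, the pan-leukocyte protein CD45 that is absent from MSCs, measured 10425 to 13144 on all 12 arrays, and the macrophage marker Cd68 measured 24712 to 31903. The sort marker Pdgfra measured 407 to 1464. The labelled cell type was therefore accompanied on every array, MSC-only included, by bright markers of another one.

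The indicator measured 23626 to 43044 on 6 arrays, co-culture 2, 3 and 5 and MSC-only 1, 3 and 5. It measured 16.7 to 57.2 on the other 6, co-culture 1, 4 and 6 and MSC-only 2, 4 and 6. The first are called the high side and the second the low side. Each side held 3 arrays of each group, and 2 of the 4 arrays without Y-linked signal. The sides are no group of the study, and what follows about them is a description without a test.

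Crabp2 measured 16.4, 212, 174, 30.3, 275 and 12.1 on co-culture arrays 1 to 6. It measured 279, 11.5, 268, 26.3, 361 and 24.3 on MSC-only arrays 1 to 6. Within both groups 3 arrays were high and 3 were low, and the groups overlapped over almost their whole range. The difference was -0.25 with a standard error of 0.85 and a 95% interval of -2.08 to 1.59 (limma adjusted p = 1.0, exact two-sided permutation p = 0.665, n = 6 each). Fewer cells that express a gene and less of its RNA per cell cannot be told apart in these bulk samples.

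By the indicator, Crabp2 measured 174 to 361 on the high side and 11.5 to 30.3 on the low side. The lowest high-side array was co-culture 3 and the highest low-side array co-culture 4. Between them the ratio of linear signals was 5.73, and the difference of log2(signal + 16), called the gap, was 2.03, which is smaller because the added constant weighs more on the dim array. All 6 low-side values lay below the median signal of their array, so the ratio rests on a dim signal. By the indicator itself, the lowest array of the high side stood at 23626 (co-culture 3) and the highest of the low side at 57.2 (MSC-only 2). Within the high side, Crabp2 measured 174 to 275 in co-culture and 268 to 361 in MSC-only, overlapping only between the highest of the first and the lowest of the second. Within the low side it measured 12.1 to 30.3 in co-culture and 11.5 to 26.3 in MSC-only. With the side as a term in the limma fit, which was added after the values were seen, the difference stayed at -0.25 while its standard error was 0.17 (adjusted p = 0.966). The split was chosen because it parts Crabp2, so a smaller standard error was fixed in advance and nothing is read from it. Without the 4 arrays that lacked Y-linked signal the Crabp2 difference was -0.26 with a standard error of 1.12, and the gap was 2.5.

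**Figure D1:**
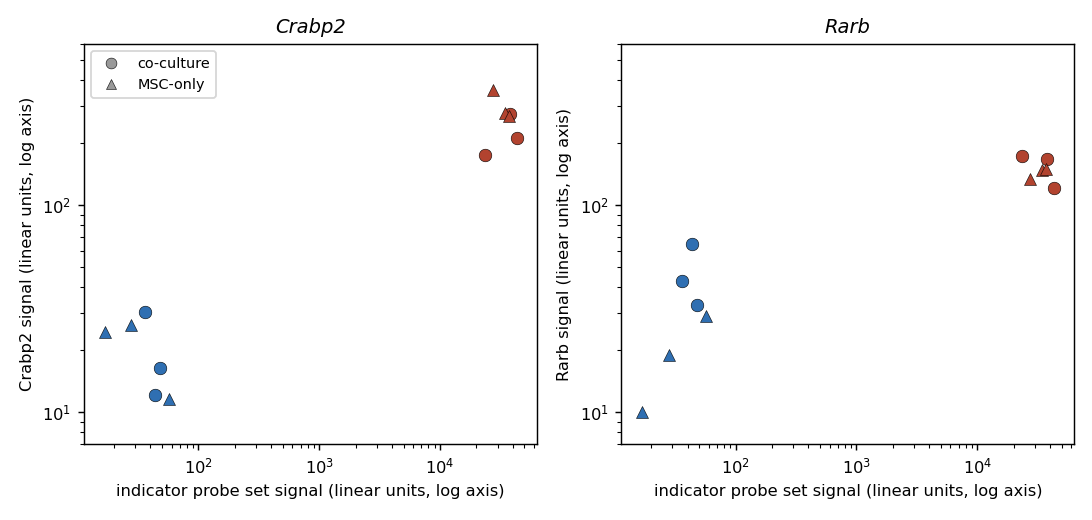
Signal of Crabp2 (left) and Rarb (right) against the signal of the indicator probe set, both in linear units on log axes, 1 point per array (circles co-culture, triangles MSC-only, red high side, blue low side). Both genes fall into a high and a low cluster of 6 arrays, with 3 arrays of each group in each cluster.

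Rarb, the retinoic acid receptor whose own gene is induced by retinoic acid, was the other member parted by the indicator. It measured 33.0, 121, 172, 42.9, 167 and 65.1 on co-culture arrays 1 to 6. It measured 147, 29.1, 150, 18.8, 134 and 10.0 on MSC-only arrays 1 to 6. The same 6 arrays that were high for Crabp2 were high for Rarb, at 121 to 172, while the low side measured 10.0 to 65.1. Between co-culture arrays 2 and 6, the nearest arrays of the 2 sides, the gap on log2(signal + 16) was 0.75 and the ratio of linear signals was 1.86. All 6 low-side values of Rarb lay below the median signal of their array. That ratio, and any comparison within the low side, therefore rests on a dim signal. Over the groups the difference was 0.45 with a standard error of 0.55 (limma adjusted p = 1.0, exact two-sided permutation p = 0.450, n = 6 each).

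On the low side Rarb measured 33.0 to 65.1 in co-culture and 10.0 to 29.1 in MSC-only, so the groups did not overlap there. On the high side it measured 121 to 172 in co-culture and 134 to 150 in MSC-only, so they overlapped. Groups that did not overlap, 3 arrays against 3, were found for 9.37% of all probe sets on the low side and for 8.62% on the high side. Of the 11 member probe sets 1 did so on each side, Rarb on the low and the brightest probe set of Aldh1a3 on the high. Whether the 2 sides differed in this for Rarb was not tested. With the side as a term in the fit the Rarb difference was 0.45 with a standard error of 0.20 (limma adjusted p = 0.951). That term takes up the parting of Rarb already described, so nothing is read from the smaller standard error. Within the high side alone, the values of Rarb and Crabp2 did not run together (Pearson r = -0.28 over 6 arrays), nor within the low side (r = -0.43).

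Of the 11 member probe sets, Crabp2 and Rarb were the 2 without overlap between the sides. Over all probe sets the share without overlap was 6.60%. Since the members were chosen with this split known, nothing is read from that comparison.

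Crabp1, the paralog of Crabp2, was dim throughout. It measured 5.90 to 33.3 in co-culture (median 9.85) and 2.10 to 47.1 in MSC-only (median 18.6), below the array's median signal on all 12 arrays. The groups overlapped, with a difference of -0.15 and a standard error of 0.33. The sides overlapped too, at 3.90 to 47.1 on the high and 2.10 to 30.8 on the low side. Crabp2 was chosen because the indicator parts it and Crabp1 was dim on every array, so the 2 binding proteins are not contrasted.

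Rbp4, the retinol carrier, measured 39.1 to 72.8 in co-culture (median 49.9) and 32.2 to 61.4 in MSC-only (median 54.1), with a difference of 0.06 and a 95% interval of -0.25 to 0.36. Stra6, the membrane receptor for that carrier, measured 62.0 on co-culture array 1 and 11.1 to 19.0 on the other 5 co-culture arrays. In MSC-only it measured 8.20 to 63.3 (median 47.8), with 4 arrays above 46 and 2 below 10. The Stra6 difference was -0.42 with a standard error of 0.35 (limma adjusted p = 1.0, exact two-sided permutation p = 0.255, n = 6 each). Stra6 is itself listed as a retinoic acid target, but the sides overlapped, at 8.20 to 63.3 on the high side and 9.30 to 62.0 on the low side. Without the 4 arrays that lacked Y-linked signal the Stra6 difference was -0.10. Rbp4 and Stra6 were both below the array's median signal on all 12 arrays, which limits what their values can show.

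Aldh1a2, a retinaldehyde dehydrogenase that makes retinoic acid, was above the array's median signal on all 12 arrays. It measured 209, 236, 644, 421, 107 and 141 on co-culture arrays 1 to 6, and 645, 358, 365, 241, 184 and 136 on MSC-only arrays 1 to 6. The highest and the lowest arrays of both groups lay close together, and the difference was -0.20 with a standard error of 0.44 (limma adjusted p = 1.0, exact two-sided permutation p = 0.697, n = 6 each). Its wide range did not follow the indicator, with 107 to 645 on the high side and 136 to 421 on the low side. Without the 4 arrays that lacked Y-linked signal the difference was -0.70 with a standard error of 0.46 (limma adjusted p = 0.836). In that set all co-culture arrays and no MSC-only array carried Xist.

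Aldh1a1, a second enzyme of that family, measured 23.1 to 108 in co-culture (median 61.2) and 12.1 to 60.8 in MSC-only (median 48.0). The difference was 0.41 with a 95% interval of -0.27 to 1.09, and the groups overlapped. Aldh1a3, the third enzyme, measured 53.7 on co-culture array 1 and 3.70 to 13.8 on the other 5 in its brightest probe set, and 3.50 to 45.5 in MSC-only. In that probe set all 3 MSC-only arrays of the high side, at 20.0 to 45.5, lay above all 3 co-culture arrays of that side, at 4.30 to 13.8. Its other 2 probe sets did not exceed 22.8 on any array, and both had a difference of 0.01. All 3 probe sets were below the array's median signal throughout.

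Rara, the receptor that most cell types carry, measured 12.9 to 54.1 in co-culture (median 38.8) and 3.60 to 52.3 in MSC-only (median 17.4). The difference was 0.44 with a standard error of 0.31 (limma adjusted p = 1.0, exact two-sided permutation p = 0.208, n = 6 each). The sides overlapped, at 3.60 to 54.1 on the high side and 19.8 to 52.3 on the low side. All 12 Rara values lay below the median signal of their array.

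**Figure D2:**
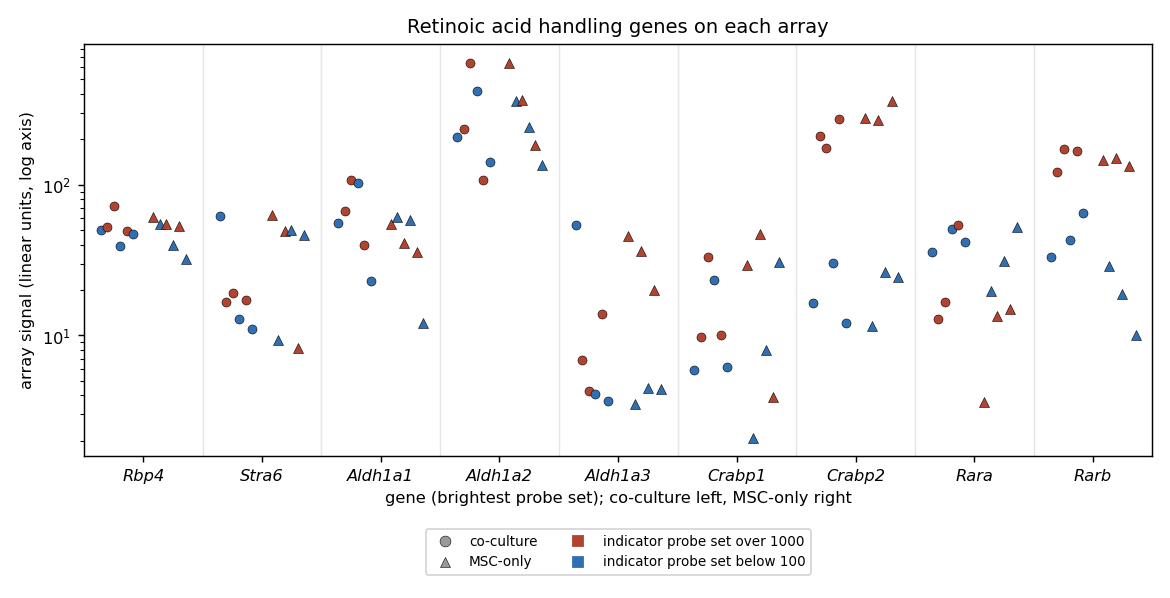
Signal of the brightest probe set of each of the 9 members on every array, in linear units on a log axis, co-culture (circles) left of MSC-only (triangles), red for the high side of the indicator and blue for the low side. Red and blue separate for Crabp2 and Rarb and mix for the other 7 genes.

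Between co-culture and MSC-only, no member probe set was called. limma called 0 of 11 at an adjusted p under 0.05, where 0.00444% of all probe sets (2 of 45037) were called. At an unadjusted p under 0.05 it was again 0 of 11, where 4.36% of all probe sets passed. That unadjusted count was 1 of 11 under 3 alternatives, for Aldh1a1 with the replicate number as a block, for Rara without MSC-only array 6, and for Rarb with the indicator side as a term. The methods' t-test called 0 of 11 both before and after adjustment. Of the 11 differences 6 were positive and 5 negative, with a median of 0.01, beside a median of 0.02 over all probe sets. Intervals were widest for Crabp2 and Rarb, the 2 genes that varied by side within each group.

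**Figure D3:**
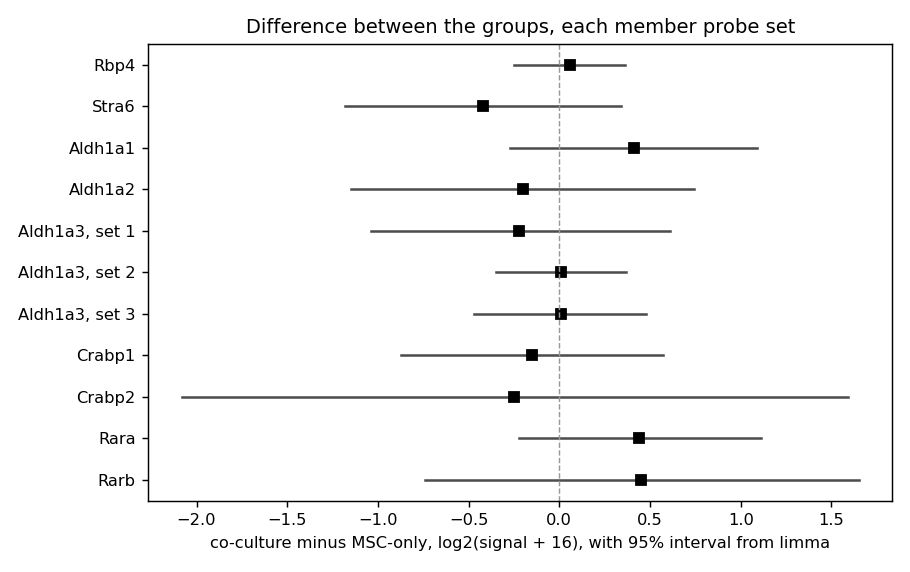
Difference of log2(signal + 16), co-culture minus MSC-only, for each of the 11 member probe sets, with limma's 95% interval (n = 6 arrays each). Every interval crosses 0, and that of Crabp2 is the widest, from -2.08 to 1.59.

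The rest of the pathway was described from lists of retinol uptake and storage, retinol dehydrogenases, retinoic acid breakdown, other binding proteins with receptors and co-regulators, and genes listed as retinoic acid targets. Of 54 listed genes outside the members 48 were measured. limma called 0 of the 48 between the groups. At an unadjusted p under 0.05, 1 was higher in co-culture and 1 lower, beside 449 higher and 267 lower of all 18193 genes. Hoxa5, a homeobox gene induced by retinoic acid, measured 164 to 331 in co-culture (median 237) and 118 to 226 in MSC-only (median 140), a difference of 0.52 (limma adjusted p = 1.0, exact permutation p = 0.0260, n = 6 each). Its second probe set had a difference of -0.08. Tbx1, a T-box factor listed as a target, was at 2.40 to 28.6 in co-culture and 9.90 to 48.2 in MSC-only, a difference of -0.65 (limma adjusted p = 1.0, exact permutation p = 0.0411, n = 6 each). Tbx1 was below the array's median signal on all 12 arrays. Both genes are printed because their p was small, and neither passed the adjusted threshold.

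By the indicator, 5 of the 48 genes did not overlap between the sides in their brightest probe set, 4 higher on the high side and 1 lower. Over all genes 4.64% were higher and 4.16% lower. Of the 15 measured target genes outside the members 3 were among them, all higher: Tgm2, Meis1 and Meis2. The lists were chosen with earlier results of these data known, so nothing is read from these counts.

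Tgm2, the tissue transglutaminase that retinoic acid induces in macrophages and other cells, measured 16645 to 22588 on the high side and 7009 to 9707 on the low side. Of its 6 probe sets 5 were parted in this direction, and the exception was its dimmest. Within each group 3 arrays were high and 3 low, and the difference between the groups was 0.06 with a standard error of 0.40. Meis1, a homeobox cofactor, measured 172 to 271 on the high side and 48.3 to 104 on the low side, with no overlap in 1 of 3 probe sets. Meis2, its paralog, measured 136 to 206 on the high side and 74.9 to 88.7 on the low side, with no overlap in 1 of 4 probe sets.

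Among partners of the receptors, Ncoa2, a coactivator of nuclear receptors, measured 3117 to 4076 on the high side and 1885 to 2350 on the low side, in 1 of 4 probe sets. The exception in direction was Scarb1, a receptor for lipoproteins that also takes up carotenoids. It measured 701 to 945 on the high side and 1212 to 1932 on the low side, and 2 of its 3 probe sets were parted. Meis1, Meis2 and, below, Rarg lie outside the rule for named genes and were chosen after their values were seen. Some cell type markers also lie outside that rule, among them Ptprc, Pdgfra, Adgre1, Itgam and Mertk.

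Hoxa5 and Nrip1, a corepressor of nuclear receptors, overlapped between the sides in their brightest probe set but each had another probe set that did not, higher on the high side. That of Hoxa5 measured 140 to 224 on the high side and 63.3 to 111 on the low side, 1 of its 2 probe sets. That of Nrip1 measured 701 to 948 on the high side and 520 to 645 on the low side, 1 of its 6. The next genes overlapped between the sides in all their probe sets. Cyp26a1, whose promoter window carries the paired half-site shown above, measured 60.3 on co-culture array 6 and 1.80 to 12.5 on the other 11 arrays. All 12 of its values lay below the median signal of their array. Cyp26b1, a second retinoic acid hydroxylase, measured 21.7 to 198 on the high side and 12.4 to 124 on the low side. Dhrs3, a retinaldehyde reductase induced by retinoic acid, came close, at 6365 to 9424 on the high side and 5238 to 6766 on the low side. Fabp5, which also binds retinoic acid, likewise overlapped narrowly, at 48200 to 66712 and 41549 to 52299. None of the 16 measured retinol dehydrogenases was parted. With 4.64% of all genes higher and 4.16% lower without overlap, nothing is read from that. The receptor Rarg measured 219 to 307 on the high side and 139 to 276 on the low side.

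**Figure D4:**
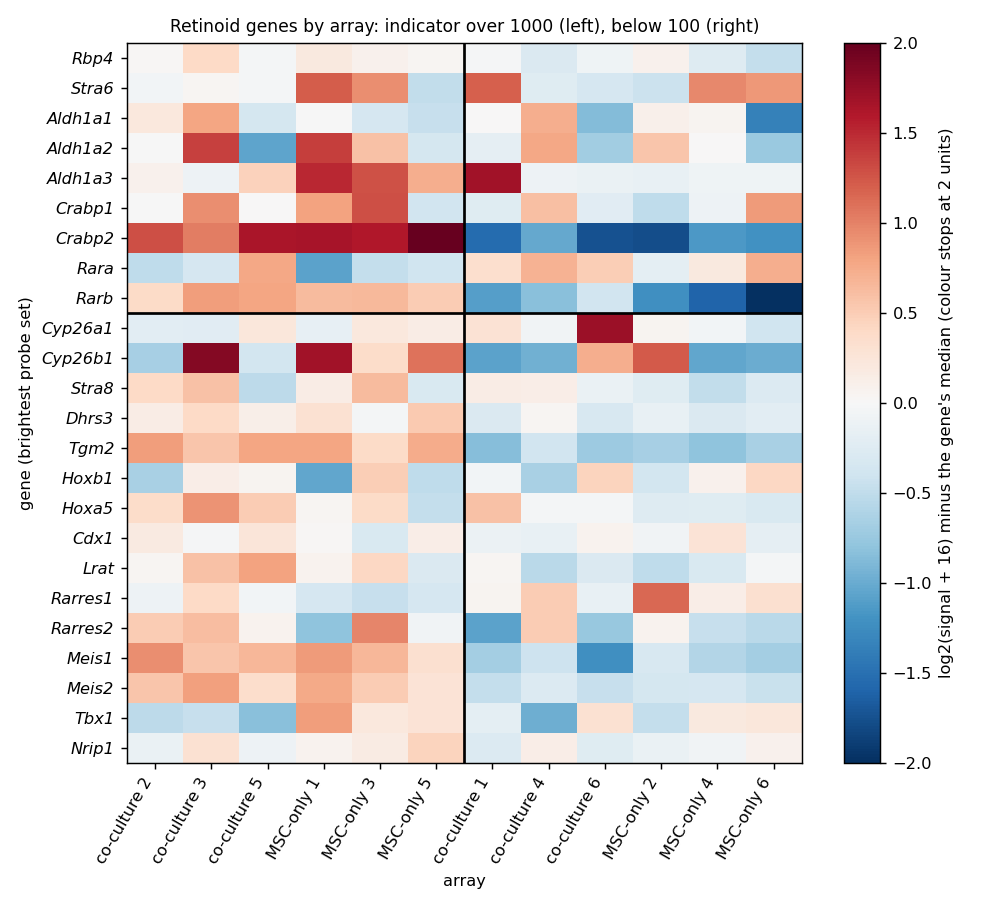
log2(signal + 16) minus each gene's own median over 12 arrays, for the 9 members (above the line) and the 15 measured target genes outside them (below), with high-side arrays left and low-side arrays right of the vertical line. Crabp2, Rarb, Tgm2, Meis1 and Meis2 are red on all 6 high-side arrays and blue on all 6 low-side arrays. Cyp26a1 is red on co-culture array 6, where its signal was still below that array's median.

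Genes most like Crabp2 were ranked by Pearson r over the 12 arrays, among 10179 genes with a mean signal of at least 100. All 12 points share the split, so r over 12 arrays mostly restates it, and r within each side of 6 arrays is given too. Vegfa, the vascular growth factor, ranked first (r = 0.98, within the high side 0.45, within the low side 0.67), at 1602 to 2045 on the high side and 358 to 632 on the low side. It was followed by Slc25a51, Snhg12, Uri1, Matr3, Mt1, Slc30a9, Ghitm, Cryzl1 and Chic2, with r of 0.97 to 0.98. Within the high side these 10 genes had r of 0.06 to 0.74 and within the low side 0.11 to 0.83. Tgm2 ranked 14th, with r = 0.97, 0.21 within the high side and 0.47 within the low side. The lowest r were those of Lancl2, Tubgcp4, Cd244a, Rgs19 and Abr, at -0.98 to -0.97. Of these Cd244a, a receptor of natural killer and other blood cells, measured 74.1 to 111 on the high side and 397 to 521 on the low side.

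Markers of cell types are given by side as a description. Over all genes 4.64% were higher without overlap on the high side and 4.16% lower, so nothing is read from the marker counts. The summed signal of 14 macrophage markers was 259031 to 312137 on the high side and 225582 to 269055 on the low side, and 2 of the 14 did not overlap, both lower on the high side. These were Adgre1, at 8833 to 12218 against 13941 to 16686, and Itgam, at 269 to 496 against 760 to 1746. Of the 14, only these 2 and Mertk had a negative r to Crabp2 over the 12 arrays. The 2 most like Crabp2 overlapped between the sides. Csf1r measured 30954 to 39489 on the high side and 22598 to 31022 on the low side, and Lyz2 30329 to 45144 and 26298 to 36684. Of 7 pan-leukocyte markers 1 was apart, Cd53, at 23987 to 29178 on the high side and 15418 to 18521 on the low side. Of 6 adipocyte markers 1 was apart, Cebpa, at 980 to 1386 on the high side and 1495 to 1945 on the low side.

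The summed signal of 14 stromal markers was 26284 to 42408 on the high side and 16409 to 26164 on the low side. The nearest sums of the sides lay close together, and none of the 14 was apart on its own. How often a sum over 14 genes is parted by side was not tested, so nothing is read from it. The brightest stromal marker was Col1a2, a chain of type I collagen, at 14397 to 20612 on the high side and 9677 to 16116 on the low side. Cxcl12, a niche chemokine, measured 2770 to 9227 and 829 to 3368. The sort marker Pdgfra measured 407 to 1464 on the high side and 448 to 1162 on the low side. Over the 12 arrays, r of the 14 markers to Crabp2 ran from -0.25 for Twist2 to 0.82 for Dcn, with 0.13 for Pdgfra. Summed levels of endothelial markers were 186 to 531 on the high side and 132 to 275 on the low side, those of erythroid markers 66.6 to 138 and 56.6 to 148, and those of epithelial markers 402 to 585 and 393 to 501. Smooth muscle markers summed to 12687 to 30774 on the high side and 18234 to 24031 on the low side, adipocyte markers to 36749 to 61346 and 48017 to 67713, and glial and neural crest markers to 131 to 206 and 83.8 to 206. Below the array's median signal on all 12 arrays were 4 of 6 endothelial, 3 of 4 erythroid and 4 of 7 epithelial markers, among them Cdh5, Alas2 and Cdh1. Between co-culture and MSC-only the summed macrophage signal was 232480 to 302392 and 225582 to 312137, and the stromal one 16409 to 41810 and 18411 to 42408. The part of these cell types in the Crabp2 and Rarb values was not tested.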

How the data were processed

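RNA of 12 samples was hybridized to GeneChip mouse genome arrays. The authors scanned them with the GeneChip Operating Software and deposited a linear signal intensity per probe set. How signals were summarised and the scaling target were not given in the sources used here. The 2% trimmed mean was 496.6 to 497.3 on every array, so each had been scaled to a common mean. Detection calls were not used here.

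Groups and replicate numbers came from the sample labels. Of 45037 probe sets, 34945 had 1 gene symbol in the platform annotation, 932 several and 9160 none here. Only the first were named. Groups were compared on log2(signal + 16) by limma 3.58.1 under R 4.3.3 (lmFit, eBayes, all probe sets, no block, Benjamini-Hochberg threshold 0.05), and single values by exact two-sided permutation over all 924 arrangements. The limma fit was tested on simulated data. Descriptions used Python 3.11.15.

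Named were all member probe sets and, of each other retinoid list, up to 3 genes with the smallest p and up to 3 brightest, the 10 genes most and 5 least like Crabp2, and the brightest and most alike genes of marker lists. The brightest probe set over all arrays stood for a gene. Not every gene that this rule selects is printed, and some named genes lie outside it, as said above. The members and lists were chosen with earlier results of these data known. All 9 members matched RefSeq by gene ID. Alternatives covered the added constant, scaling, a filter on dim probe sets, a replicate block, limma's options, the methods' t-test, the mean over probe sets, arrays left out, and the indicator side as a term.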

Additional observations from a re-analysis of the deposited data

Results flagged for a closer look

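In 60 groups of 6 arrays, 30 genes in both groups, 5 had 1 array whose gap to the next divided by the group's range exceeded Dixon's 95% critical value. Chance gives about 1 in 20, and most of these signals are dim. Stra6 stood at 62.0 on co-culture array 1, against 11.1 to 19.0 on the other co-culture arrays. Aldh1a3 stood at 53.7 on co-culture array 1, against 3.70 to 13.8 on the others. Rpe65, the retinoid isomerase of the eye, stood at 22.8 on co-culture array 1, against 3.40 to 7.5. Cyp26a1 stood at 60.3 on co-culture array 6, against 4.0 to 12.5. Bco2, a carotenoid-cleaving enzyme, stood at 114 on MSC-only array 4, against 189 to 249 on the other MSC-only arrays.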

How the results depend on the processing

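No member probe set and no other retinoid gene was called by limma, or by the methods' t-test after adjustment, under any alternative run, and the smallest adjusted p of a member difference was 0.836. The Crabp2 difference had no stable sign, at -0.64 to 0.12 when 1 array was left out. It was above 0 without co-culture array 1 (0.05), co-culture 6 (0.09), MSC-only 1 (0.05), MSC-only 3 (0.04) or MSC-only 5 (0.12). With 1 array left out the sign also turned for Crabp1 (range -0.31 to 0.05, above 0 without MSC-only 3), Rbp4 (-0.03 to 0.11, below 0 without co-culture 3 or MSC-only 6) and Aldh1a2 (-0.47 to 0.02, above 0 at 0.01 without co-culture 5 and at 0.02 without MSC-only 1). Quantile normalization put Rbp4 at -3.7e-03, and leaving out the 4 arrays that lacked Y-linked signal put Aldh1a3 at 0.02. The Crabp2 gap between the indicator's sides was 2.03 to 2.30 with 1 array left out, 2.48 with a constant of 1, 1.33 with a constant of 64 and 2.5 without those 4 arrays. Over all probe sets 2 were called, against 0 to 8 under the alternatives (8 without those 4 arrays), and the methods' t-test passed 1868 before adjustment and 1 after. In the set without those 4 arrays, Xist and group coincided.

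Deviations of samples with the same replicate number correlated at -0.16, -0.13, 0.12, 0.15, 0.10 and 0.15 for numbers 1 to 6. Both arrays of number 3 and both of number 4 lacked Y-linked signal. The indicator side was the same within numbers 3, 4, 5 and 6 and differed within numbers 1 and 2. The labels name no shared source, so whether equal numbers share one is not known. The study's methods name an unpaired test, so the main fit was unpaired and the block was run as an alternative. With the replicate block the Crabp2 difference was -0.25 with a standard error of 0.67, and 0 probe sets were called over the array. The Aldh1a1 difference was 0.41 with a standard error of 0.17 under the block, against 0.31 without it, and its limma adjusted p was 1.0 in both. The filter on dim probe sets left 5 of 11 member probe sets. Signals under the array's median, which held 6 members on at least 10 of 12 arrays, limit what can be read.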
